A study of Homo sapiens with 44 samples.

Results

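The collagen genes were followed through the differentiation of H1 towards heart muscle. H1 is an embryonic stem cell line of human origin and long established. A member was any protein-coding gene of the GENCODE 29 annotation whose symbol is COL, a number, A and a number. This rule gave 44 genes of the 19650 protein-coding genes in the tables, and it uses no measured value. COL10A1 reached at most 10 counts in a library and did not pass the filter on low counts, so 43 members were tested.

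The 44 libraries, each from 1 well, came from 12 groups. Pluripotent cells (3 wells) were kept on the laminin LN-521, and all other groups on LN-521 with LN-221. CHIR99021, an inhibitor of GSK3 that switches on Wnt signalling, was added at day 0, and IWP2, an inhibitor of Wnt production, at day 3. Until day 11 the medium held a supplement without insulin, given as B21 in one part of the labels and B27 in another. From day 11 on it held a CTS grade supplement in its place, so day 30 and day 90 against day 9 span a change of medium. Wells were taken at days 0, 1, 3, 14, 20, 30 and 90 (3 each) and at days 5, 7, 9 and 11 (5 each). All come from 1 cell line, and no label says that the wells of a day were separate differentiation runs. P-values therefore measure the spread between wells, which may be technical. The tests between days use 1 spread per gene from all 44 libraries, not that of the compared wells alone. Wells are named by the number in their label. In bulk RNA of whole wells, fewer cells of a type and less RNA per cell cannot be told apart.

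Collagens are secreted or membrane-bound proteins in which 3 chains wind into a triple helix. Fibril-forming collagens make the cables of connective tissue, the network collagens of basement membranes form sheets under epithelia and around muscle cells, and beaded-filament collagens link cells to both. In the heart, fibroblasts produce most fibrillar collagen, while cardiomyocytes and endothelial cells are surrounded by a type IV basement membrane. Chains of a type are often encoded by separate genes that must be made together, so partner chains can be set side by side.

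The libraries held 6937136 to 33498022 counts, had RNA integrity numbers from 7.4 to 10 and were spread over 5 sequencing lanes. Levels are compared between libraries as CPM, counts scaled to library size with TMM factors, and between genes as TPM, which also account for gene length. Some libraries stood apart for the collagens. Among the members with a group mean of at least 5 CPM in some group and over 3 counts in every well of the day, Day 1 well 2 was the lowest of its day for 23 of 35, and Day 30 well 3 the highest for 27 of 36. Day 90 well 4 was the lowest for 18 and the highest for 14 of 36. The median ratio of the highest to the lowest well over these members was 1.12 at day 0 and 1.88 at day 5. It was 2.53 among day 30 wells and 3.79 among day 90 wells. Of the 44 genes, 25 overlap another annotated gene, among them COL4A1 and COL4A2, which overlap each other at their starts, COL18A1 with SLC19A1, and COL19A1 with LMBRD1. No source used here says whether counting used strand, so such reads may be shared.

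The collagen share of protein-coding counts was higher in every well from day 3 on than in any earlier well. It was 0.169 ± 0.0195% in pluripotent cells and 0.291 ± 0.00776% at day 0 (SD, n = 3 each). At day 1 it was 0.265% on average. It was 0.621 ± 0.0115% at day 3 (SD, n = 3), 1.09 ± 0.177% at day 5 (SD, n = 5) and 1.57 ± 0.571% at day 90 (SD, n = 3). COL3A1, the fibril chain of elastic tissues such as vessel wall, made up a growing part of it. Without COL3A1 the count share was 0.985% at day 5 and 0.887% at day 90. Of all TPM, collagens took 0.0204% in pluripotent cells and 0.112% at day 5 (0.0829% to 0.169% over 5 wells). By day 90 this share was 0.0857% (0.0621% to 0.110% over 3 wells), overlapping the day 5 wells. Of protein-coding TPM, collagens took 0.387% at day 5 and 0.487% at day 90, the same order as for counts. Protein-coding genes held 28.9% of all TPM at day 5 and 17.8% at day 90, so the order of these means depends on the denominator. A mean of at least 1 TPM was reached by 24 members in pluripotent cells, 31 at day 5 and 31 at day 90. By TPM, COL18A1, a basement membrane collagen that carries heparan sulfate, led in pluripotent cells with 17.0% of all collagen TPM. COL6A1 of the beaded filaments led at day 1 with 20.2%. COL3A1 led at day 9 with 18.8% and at day 90 with 38.0%, where the 3 wells ranged from 15.6% to 54.0%.

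**Figure D1:**
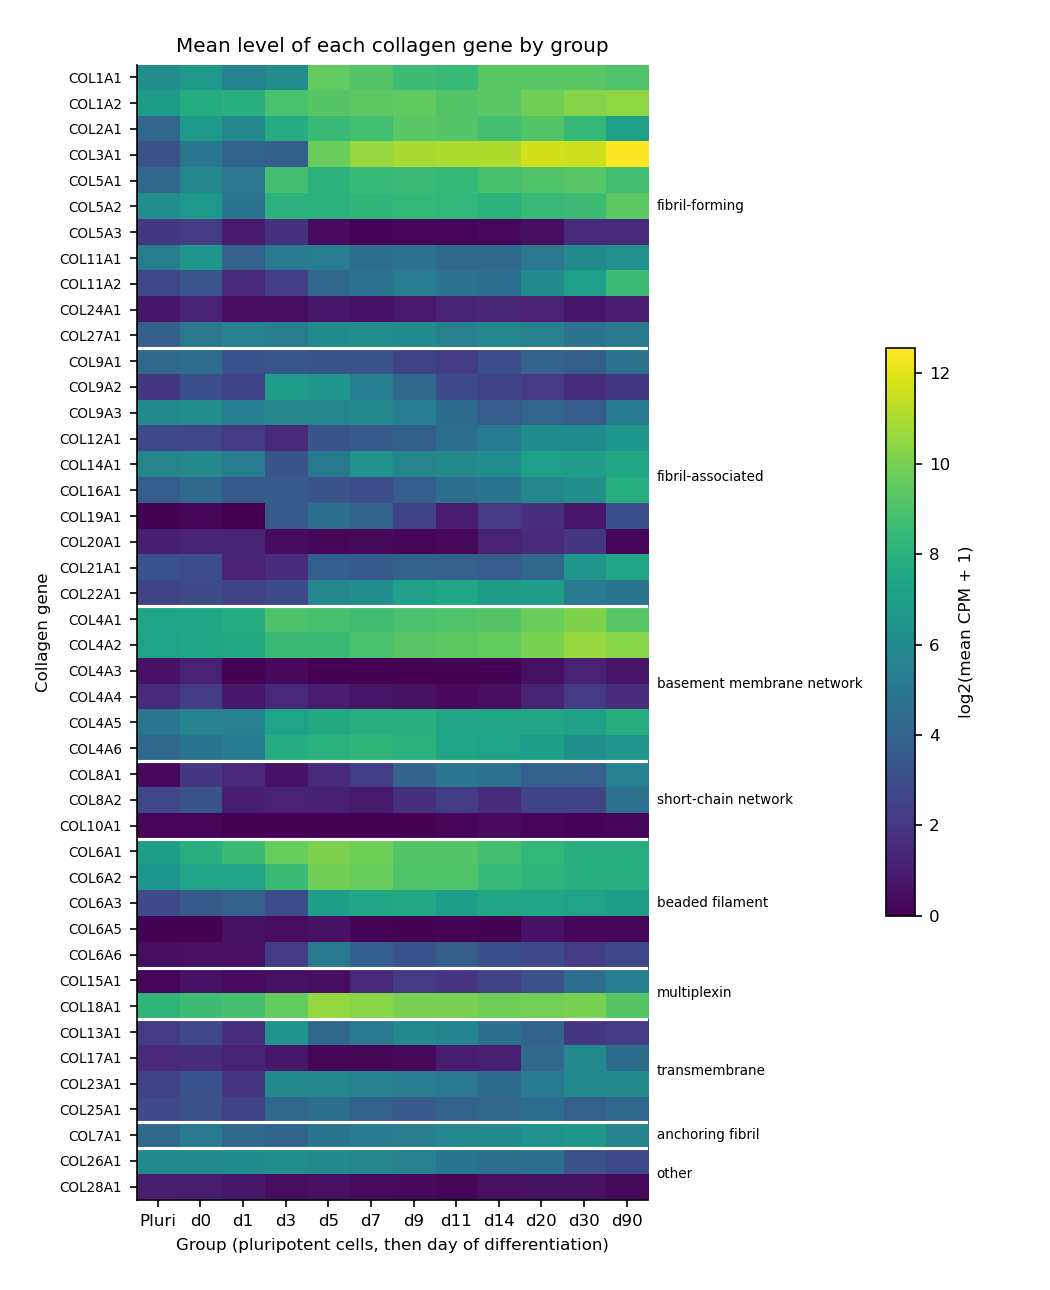
Mean level of each collagen gene in each of the 12 groups, shown by colour on a log2(CPM + 1) scale with genes ordered by class. Light colours are high levels. COL3A1 is dark until day 3 and lightest at day 90, while COL9A2 and COL13A1 are lightest at day 3.

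The members peaked on different days. Day 90 held the highest group mean for 13 of the 44, day 5 and day 30 for 7 each, day 0 for 4, and day 1 for none. COL6A1, COL6A2 and COL18A1 were highest at day 5, by CPM, by TPM and without any 1 well. COL3A1 was highest at day 90 by CPM, also without any 1 well, and at day 20 by TPM. Many other peaks were not firm, since for 23 of the 44 another group was highest once a single well was left out, and for 18 by TPM. COL1A1 had its highest CPM at day 5, but at day 14 by TPM. COL1A2 was highest at day 90 with 1398 CPM, but without Day 90 well 2 its mean there was 876 CPM, below the 1217 CPM of day 30, and by TPM day 30 was highest. COL4A1 and COL4A2 were highest at day 30. Without Day 30 well 3 their means were 768 and 1099 CPM, below the 835 CPM of day 20 and the 1274 CPM of day 90.

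For each step, edgeR's quasi-likelihood F test was fitted to the 22955 genes that passed the filter. A gene was called at a Benjamini-Hochberg adjusted p under 0.05 and a log2 change of at least 1 in size. At day 0 against pluripotent cells 6 of 43 members were called, all higher. Of all genes 2.91% were called, 2.73% higher and 0.183% lower, and the members' median log2 change was 0.67. At day 1 against day 0, the first day of GSK3 inhibition, 13 members were called (13.5% of all genes), 1 higher (3.86%) and 12 lower (9.66%), with a median of -0.81. At day 3 against day 1 the direction turned, with 15 higher (11% of all genes) and 2 lower (6.8%) among 17 (17.8% of all genes) and a median of 0.84. At day 5 against day 3, which spans the addition of IWP2, 11 were higher (5.75% of all genes) and 4 lower (4.34%), where 10.1% were called in either direction. At day 9 against day 5, when contractile genes rise, 4 were higher (6.84% of all genes) and 5 lower (3.39%), where 10.2% were called in either direction.

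Day 30 against day 9 called 25 members, 15 higher (9.69% of all genes) and 10 lower (9.25%), where 18.9% were called in either direction, with a median of 0.67. Day 90 against day 9, which uses the same day 9 wells, also called 25, with 17 higher (11.9% of all genes) and 8 lower (12%), where 23.9% were called in either direction. At day 90 against day 30 only 5 members were called, 4 higher (2.65% of all genes) and 1 lower (2.44%), where 5.09% were called in either direction. With only the 2 compared groups fitted, 2 of all genes were called there in place of 1168. At day 0 against pluripotent cells that fit called 1592 in place of 669. Median changes over all genes lay between -0.07 and 0.07 in these 8 comparisons. Consecutive comparisons share the wells of the day between them, so a value by chance high on that day counts with opposite sign in each. Over the comparisons 39 of 43 members were called at least once, as were 47.4% of all genes tested. COL1A2, COL7A1, COL18A1 and COL28A1 were called in none.

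The early steps involved different members. The 6 called at day 0 were COL8A1, COL2A1, COL5A1, COL9A2, COL11A1 and COL27A1. COL11A1 (log2 change 1.28, adjusted p 0.044) lost its call when any 1 of the 6 wells was left out, and COL9A2 (1.36, adjusted p 0.025) when any of 5 was. The 12 lower at day 1 were COL1A1, COL5A2, COL11A1, COL11A2 and COL24A1 of the fibril chains, COL9A1 and COL21A1 of the fibril-associated ones, COL4A3, COL4A4, COL8A2, COL13A1 and COL23A1. Of these, COL5A2, COL11A1, COL13A1 and COL23A1 were then among the 15 higher at day 3. The day 1 calls of COL13A1 and COL24A1 were each lost without any 1 of 4 of the 6 wells, that of COL9A1 without Day 1 well 1 or 2, and the day 3 call of COL11A1 without Day 1 well 2 (log2 change 0.92) or Day 3 well 3 (1.17).

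**Figure D2:**
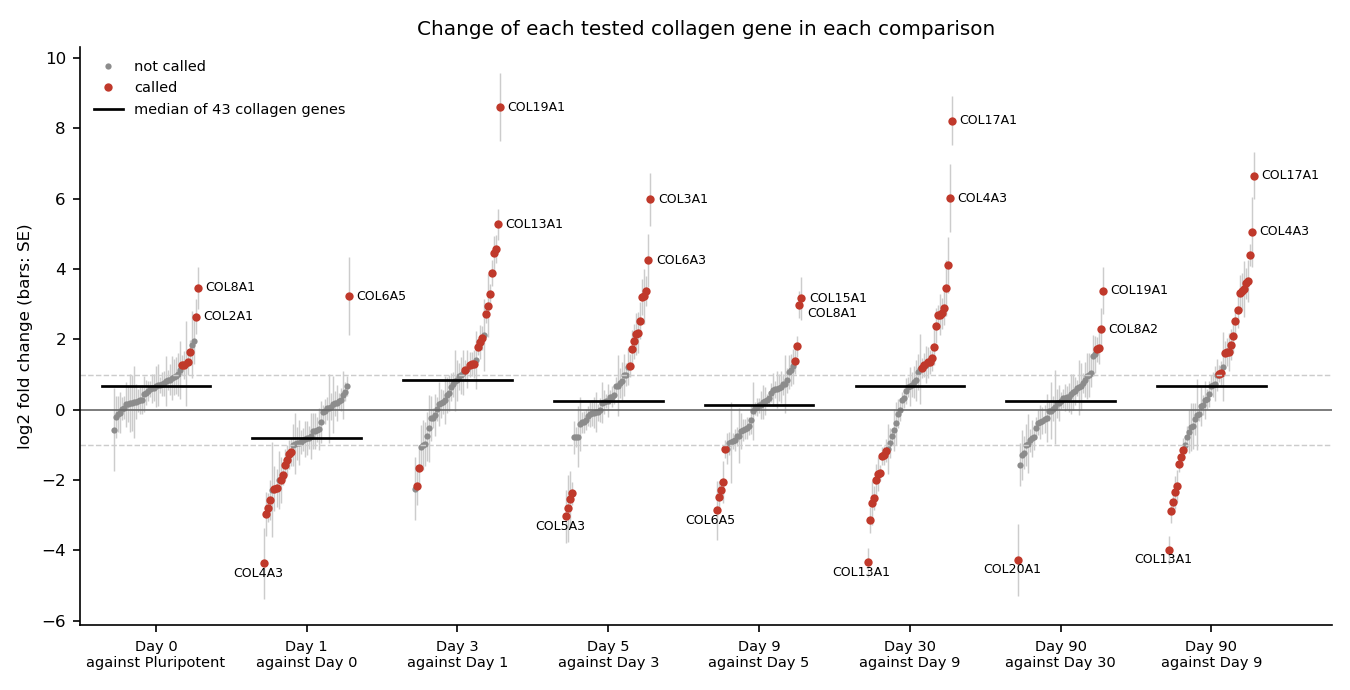
Log2 change of each of the 43 tested collagen genes in each of 8 comparisons (points), with bars of 1 SE, called genes in red, others in grey, the median of the members as a black line and the largest called changes labelled. Day 1 against day 0 has 12 called points below 0, and day 3 against day 1 has 15 above it.

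Type I and type III chains, the main fibrils of connective tissue, took separate courses. COL1A1 (ENSG00000108821, chr17:50183289-50201632, minus strand, GRCh38) was 68.5, 73.1 and 71.5 CPM in the pluripotent wells and 119, 103 and 103 CPM in the day 0 wells. At day 1 it was 42.8, 39.3 and 52.6 CPM and at day 3 it was 91.1, 68.0 and 52.0 CPM. The 5 day 5 wells then held 810, 842, 765, 540.4 and 686 CPM, every one above every earlier well. The change from day 3 to day 5 was 3.37 on the log2 scale (SE 0.43, adjusted p 2.2e-07). Its fall from day 0 to day 1 was smaller (log2 change -1.27, SE 0.41, adjusted p 0.024). That call was lost when any 1 of the 6 wells was left out (adjusted p 0.051 to 0.103). Day 9 wells ranged from 267 to 524 CPM, and the change from day 5 (log2 -0.86, adjusted p 0.049) stayed under the fold threshold.

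COL3A1 (ENSG00000168542, chr2:188974320-189012746, plus strand) was nearly silent early. It was 6.67, 6.55 and 9.48 CPM in pluripotent wells, 28.6, 27.05 and 31.9 CPM at day 0 and 12.99, 12.85 and 12.87 CPM at day 3. Day 5 wells held 343, 833, 1995, 418 and 489.6 CPM, well 3 being the highest and the lowest still far above all earlier wells. The log2 change from day 3 was 5.98 (SE 0.76, adjusted p 2.4e-07). Early wells shared lanes with wells rich in COL3A1, and their levels equal 0.0385% to 0.329% of the summed level of later wells in the same lane, so spill-over at that rate cannot be told apart from expression. At day 9 the wells ranged from 1252 to 3858 CPM and at day 90 they were 10766, 1836 and 5391 CPM. The day 90 range overlaps that of day 9. The log2 change was 1.65 (SE 0.55, adjusted p 0.015), and without Day 90 well 2 it was 0.91 (adjusted p 0.27).

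COL1A2, the partner of COL1A1 in type I fibrils, rose in another order. Its mean was 115 ± 7.97 CPM in pluripotent cells, 252 ± 12.3 at day 1 and 497 ± 35.5 at day 3 (SD, n = 3 each). At day 5 it was 595 ± 192 CPM (SD, n = 5), a log2 change from day 3 of 0.26 that was not called. Thus at day 3 COL1A2 stood near its day 5 level while COL1A1 did not, and the TPM ratio of COL1A1 to COL1A2 moved from 0.185 at day 3 (0.132 to 0.284 over 3 wells) to 1.51 at day 5 (1.03 to 1.80 over 5 wells). In the assembled fibril the usual ratio favours the alpha 1 chain. The ratio returned to 0.584 at day 90 (0.389 to 0.882). COL1A1 over COL3A1, in contrast, was almost the same in all 3 day 90 wells, 0.117 to 0.118, although COL1A1 itself was 945, 178 and 516 CPM in them.

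**Figure D3:**
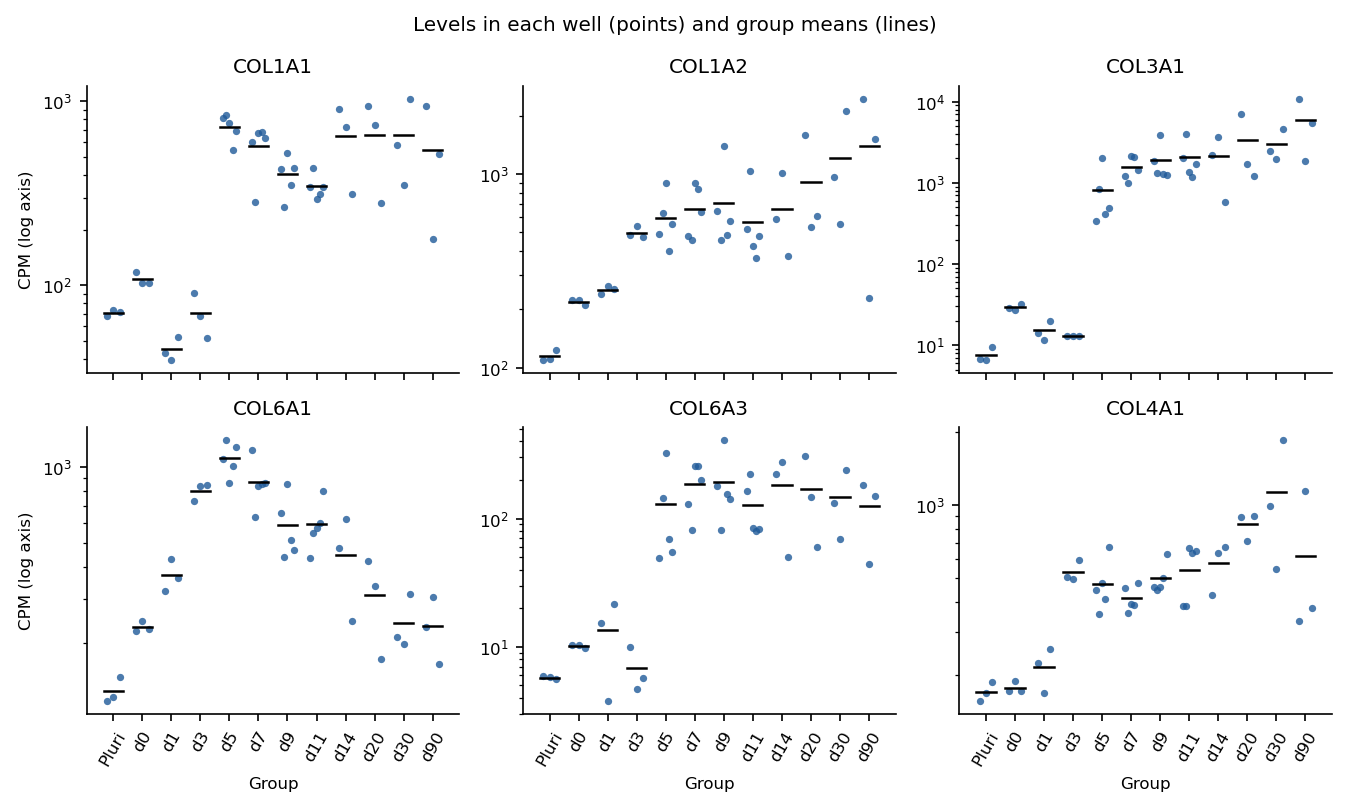
CPM in every well on a log axis for 6 collagen genes over the 12 groups, with a line at each group mean. COL1A1, COL3A1 and COL6A3 step up between day 3 and day 5, COL4A1 between day 1 and day 3, and the day 30 and day 90 wells scatter widely.

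COL2A1, the fibril chain of cartilage that is also made in early embryonic tissues, began earlier. Pluripotent wells held 17.1, 17.8 and 17.5 CPM, and day 0 wells held 112, 107 and 109 CPM (log2 change 2.65, SE 0.49, adjusted p 0.00099). At day 1 it was 71.2, 15.1 and 82.5 CPM, with well 2 low, and day 3 wells held 262, 199.5 and 181 CPM (log2 change 1.93, SE 0.48, adjusted p 0.0019). The day 9 mean was 641 ± 287 CPM (SD, n = 5). By day 90 the wells held 121, 181 and 124 CPM, all below every day 9 well, and the log2 change from day 9 was -2.17 (SE 0.45, adjusted p 0.00018).

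Cartilage markers moved in part of the same steps. Of the 5 listed (SOX9, ACAN, MATN1, HAPLN1, COMP), 4 fell from day 0 to day 1 and only HAPLN1 rose from day 1 to day 3. Their summed level was 5.01 to 10.1 CPM at day 1, 401 to 834 CPM at day 3 and 9.32 to 15.2 CPM at day 90. HAPLN1, which links proteoglycans to hyaluronan, supplied most of it with a day 3 mean of 545 CPM, while ACAN was at 1.69, MATN1 at 0.190 and COMP at 0.0632 CPM. Their part in the COL2A1 result was not tested.

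Among type V and type XI chains, which start fibrils and set their width, COL5A2 and COL11A1 passed the test both in the fall to day 1 and in the rise to day 3. COL5A2 was 99.1, 102 and 103 CPM at day 0, 26.3, 28.5 and 28.6 CPM at day 1 and 360.5, 228 and 224 CPM at day 3. Neither step has overlapping wells. The log2 change was -1.86 (SE 0.28, adjusted p 4.95e-06) and then 3.28 (SE 0.30, adjusted p 6.3e-11). COL5A1 did not pass in the first step and rose by 3.89 (SE 0.36, adjusted p 8.6e-11) in the second, when its mean went from 30.6 ± 3.87 to 452 ± 51.1 CPM (SD, 3 wells each). COL11A1 had a mean of 93.7 ± 9.44 CPM at day 0 and 13.6 ± 7.11 at day 1 (SD, n = 3 each). It fell by 2.78 on the log2 scale (adjusted p 3.6e-06) and was 33.7 ± 5.89 at day 3. By TPM, COL11A2 came to exceed COL11A1, but not in every later well. The mean TPM ratio of COL11A1 to COL11A2 fell from 12.5 on day 0 to 0.813 among day 9 wells (range 0.429 to 1.09). Day 11 wells had a higher mean again, 1.47 (range 0.533 to 3.62). COL11A2 was ahead in all day 30 wells, with a mean ratio of 0.515 (range 0.409 to 0.676). Day 90 wells ranged from 0.0357 to 2.20, so the order of the chains differed between them. COL11A2 rose from day 9 to day 90 (log2 change 3.32, SE 0.51, adjusted p 2.1e-06) with wells at 68.3, 968 and 113 CPM, well 4 standing far above the other two.

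Type IV collagen, the sheet of basement membranes, comes from 3 pairs of genes that lie head to head. COL4A1 (ENSG00000187498, chr13:110148963-110307233, minus strand) was 155, 168 and 187 CPM in pluripotent wells and 223, 169 and 255 CPM at day 1. Day 3 wells held 503, 497 and 593 CPM, all above the day 1 wells, and the log2 change was 1.299 (SE 0.33, adjusted p 0.0027). Its partner COL4A2 was 194 CPM at day 1 (156 to 232 over 3 wells) and 374 CPM at day 3 (366 to 381), under the fold threshold. From day 9 to day 30 both were called higher, COL4A1 by 1.18 (SE 0.29, adjusted p 0.0016) and COL4A2 by 1.36 (SE 0.34, adjusted p 0.0021). COL4A1 was 991, 544 and 1848 CPM in day 30 wells against 446 to 629.5 at day 9, so the lowest day 30 well lies inside the day 9 range. Without Day 30 well 3 neither was called, at 0.62 (adjusted p 0.12) and 0.82 (adjusted p 0.083). COL4A2 from day 9 to day 90 was 1.04 (SE 0.34, adjusted p 0.013) and rested on Day 90 well 4. Its wells held 489, 2762 and 570.0 CPM, and without well 4 the log2 change was -0.21.

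The start sites of COL4A1 and COL4A2 in RefSeq (GRCh38.p14) lie 126 bases apart, and those of COL4A5 and COL4A6 379 bases apart. Windows are shown because each serves a pair of genes whose levels are compared here. They were searched on both strands for CCAAT and GGGCGG, and matches are in capitals. The first is a 30-base site between COL4A1 and COL4A2, at chr13:110307166-110307195, and the second the 250 bases before the start of COL4A5 on the side of COL4A6, at chrX:108439588-108439837, both on the plus strand.
COL4A1/COL4A2 site: cgggccgagctccCCAATttgttggcgctg
COL4A5 upstream: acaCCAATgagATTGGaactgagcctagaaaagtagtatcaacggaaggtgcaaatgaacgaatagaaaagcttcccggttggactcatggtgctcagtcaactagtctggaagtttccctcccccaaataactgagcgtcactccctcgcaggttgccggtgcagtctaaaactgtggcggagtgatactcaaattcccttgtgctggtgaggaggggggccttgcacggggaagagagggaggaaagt
The 126 bases between the COL4A1 and COL4A2 starts hold 1 CCAAT and 1 GGGCGG, which 21.1% and 34.6% of 35116 RefSeq promoter windows hold in that length. They are 80.2% G and C, against a median of 60.3%. In GENCODE, 124 of these 126 bases lie in exons, as do all 30 bases of the printed site, against 0 of the 250 bases at COL4A5. The 250 bases at COL4A5 hold 2 CCAAT, 1 on each strand, and 0 GGGCGG. In that length 32.0% of promoters hold CCAAT and 42.6% hold GGGCGG. Their G and C share is 51.2%, against a median of 58.0%.

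COL4A5 and COL4A6, the X-linked pair whose products join other alpha chains in basement membranes, rose together at day 3. COL4A5 was 43.9, 48.6 and 43.6 CPM at day 1 and 146, 149 and 173 CPM at day 3 (log2 change 1.78, SE 0.23, adjusted p 1.5e-07). COL4A6 was 34.70, 32.52 and 33.003 CPM at day 1 and 199, 213 and 244 CPM at day 3 (log2 change 2.71, SE 0.25, adjusted p 8.9e-11). Their later courses differ, since COL4A6 fell from day 9 to day 30 (log2 change -1.80, SE 0.23, adjusted p 8.7e-08) and COL4A5 was not called. The TPM ratio of COL4A5 to COL4A6 was 2.11 at day 0 and 0.847 at day 3, and it reached 2.52 by day 90. The third pair, COL4A3 and COL4A4, known from kidney and lung membranes, stayed under 4 CPM in every group mean. COL4A3 had at most 3 counts in any day 1 well and was at least 12.4-fold lower there than at day 0. Against the same limit at day 9 its mean was at least 11.2-fold higher at day 30. That mean leans on Day 30 well 3, since the wells held 0.367, 0.703 and 2.69 CPM. Without well 3 the mean was 0.535 CPM.

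**Figure D4:**
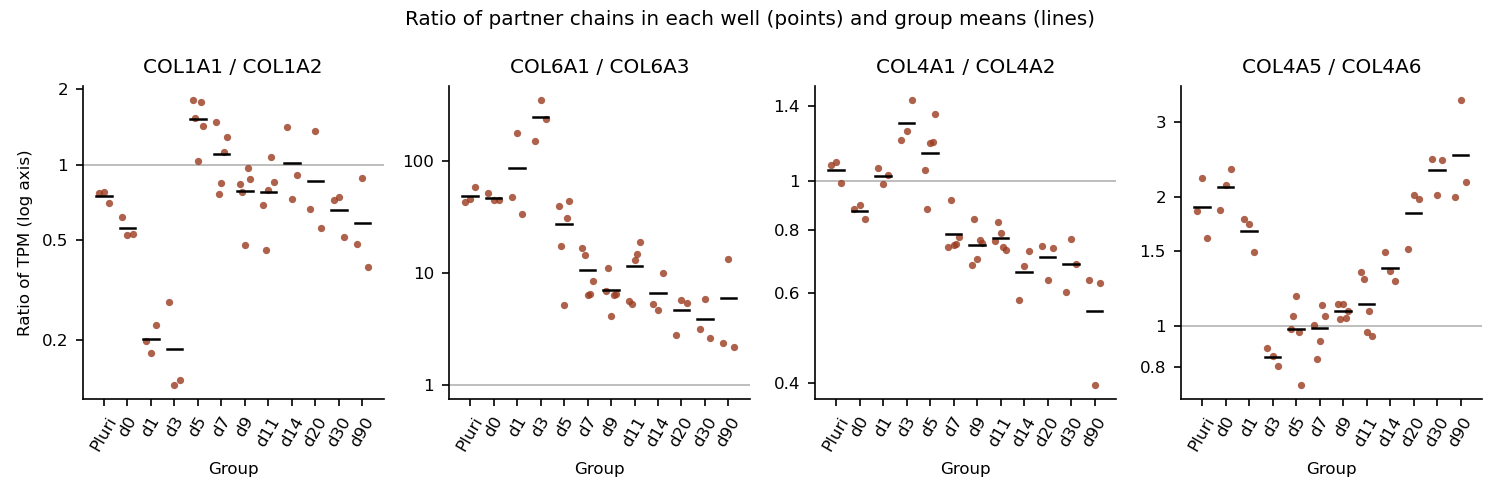
Ratio of TPM between partner chains in every well over the 12 groups, on log axes with a line at 1. COL1A1 over COL1A2 lies below 0.3 in all day 1 and day 3 wells and above 1 in all day 5 wells, and COL6A1 over COL6A3 falls from 153 to 353 at day 3 to 2.66 to 5.86 at day 30.

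Type VI collagen forms beaded filaments around cells, and its classical unit joins the products of COL6A1, COL6A2 and COL6A3. The first of these led and the last lagged. COL6A1 was 320.5, 430 and 362 CPM at day 1 and 730.0, 838 and 846 CPM at day 3 (log2 change 1.12, SE 0.29, adjusted p 0.0030). COL6A2 rose in the same step by 1.28 and again from day 3 to day 5 by 1.25 (SE 0.33, adjusted p 0.0056). COL6A3 was still 9.97, 4.69 and 5.74 CPM at day 3. At day 5 its wells held 49.1, 145, 326, 69.3 and 54.7 CPM (log2 change 4.24, SE 0.75, adjusted p 6.8e-05). The highest day 5 wells for COL6A3, wells 3 and 2, were also the highest for COL3A1. COL6A1 and COL6A2 were lower at day 30 than at day 9, by log2 changes of -1.29 (adjusted p 0.00029) and -1.16 (adjusted p 0.0056), and no well of one day overlaps the other. The call of COL6A2 was lost without Day 9 well 2 or Day 30 well 1. COL6A3, at 193 ± 125 CPM at day 9 (SD, n = 5) and 147 ± 86.4 at day 30 (SD, n = 3), was not called, and the TPM ratio of COL6A1 to COL6A3 went from 249 at day 3 to 3.90 at day 30. COL6A6, a later-described chain that can replace the alpha 3 chain, rose in both steps to 33.2 ± 6.56 CPM at day 5 (SD, n = 5) and fell to day 9 (log2 change -2.06, adjusted p 0.010). COL6A5 had at most 16 counts in any library.

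Transmembrane collagens, which sit in the cell surface and can be shed, changed most between day 1 and day 3. COL13A1, found at muscle and nerve contacts, was 1.92, 3.37 and 1.68 CPM at day 1 and 63.9, 101 and 104 CPM at day 3 (log2 change 5.27, SE 0.44, adjusted p 7.6e-12). It then went down to 17.3 ± 2.94 CPM at day 5, up to 59.99 ± 17.2 at day 9 (SD, n = 5 each) and down to 2.98 ± 0.156 at day 30 (SD, n = 3), each step called. COL23A1 had a mean of 2.69 ± 0.266 CPM at day 1 and 59.3 ± 11.98 at day 3 (SD, n = 3 each). It rose by 4.46 on the log2 scale (adjusted p 3.5e-09), and COL25A1 by 2.05 (adjusted p 1.2e-05). COL17A1, the hemidesmosome collagen of skin and other epithelia, went the other way. It was 0.0758 to 0.325 CPM in the day 9 wells and 20.2, 27.4 and 139 CPM in the day 30 wells (log2 change 8.22, SE 0.69, adjusted p 1.3e-11), and 29.5, 3.20 and 30.4 CPM at day 90.

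Fibril-associated collagens coat or connect fibrils. COL9A2, which decorates type II fibrils, was 5.19, 4.21 and 5.76 CPM at day 1 and 144, 108 and 107 CPM at day 3 (log2 change 4.56, SE 0.40, adjusted p 3.4e-11). It fell from day 5 to day 9 (log2 change -2.29) and from day 9 to day 30 (-3.14), both called. Its partner COL9A1 was 8.10 ± 0.779 and 9.19 ± 0.605 CPM at day 1 and day 3 (SD, n = 3 each), and the TPM ratio of COL9A1 to COL9A2 went from 4.97 in pluripotent cells to 0.0750 at day 3. At day 90 it was 3.71, 15.5 and 5.61 in the wells, with a mean of 8.29, or 4.66 without well 4. COL9A3, the third type IX chain, was 43.4, 27.9 and 49.7 CPM at day 1 and 63.1, 47.5 and 50.8 CPM at day 3. The TPM ratio of COL9A2 to COL9A3 went from 0.133 to 1.82 between these days. The only call of COL9A3 was a fall from day 9 (24.1 to 79.7 CPM) to day 30 (16.8, 5.47 and 12.6 CPM). COL19A1, known from muscle and nerve development, had at most 1 count in any day 1 well and 10.2, 10.4 and 10.4 CPM at day 3, at least 106-fold higher. COL14A1, which regulates fibril growth, ran against the family in this step. Its mean was 38.7 ± 1.57 CPM at day 1 and 8.61 ± 1.03 at day 3 (SD, n = 3 each), and it fell by 2.17 on the log2 scale (adjusted p 0.0018).

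A second set of fibril-associated genes rose late. COL16A1, made by smooth muscle and fibroblasts, was 8.57 to 15.0 CPM in day 9 wells, 95.8, 34.4 and 88.7 CPM at day 30 and 326, 210 and 184 CPM at day 90. By CPM no well of a later one of these days overlaps an earlier one. By TPM, Day 90 well 5 (13.3) lies below Day 30 well 3 (17.0). The log2 change was 2.68 from day 9 to day 30 (SE 0.30, adjusted p 8.8e-09) and 1.72 from day 30 to day 90 (SE 0.34, adjusted p 0.0013). The call from day 30 to day 90 was lost in 3 of the alternative fits, which include leaving out single wells. COL21A1, a vessel-wall collagen, was 13.9 ± 8.87 CPM at day 9 (SD, n = 5) and 59.6, 91.8 and 127 CPM at day 30 (log2 change 2.74, SE 0.44, adjusted p 7.9e-06). COL12A1, which cross-bridges fibrils under load, rose by 2.39 from day 9 to day 30 with overlapping wells (42.9, 16.5 and 147 CPM against 10.0 to 21.4), and that call was lost without Day 30 well 3. COL22A1, found at muscle-tendon junctions, rose from day 3 to day 5 (log2 change 3.20, adjusted p 1.2e-05) and from day 5 to day 9 (1.39), and fell from day 9 to day 30 (-2.003, adjusted p 0.0010).

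Of the other classes, the short-chain network pair had COL8A1, a vessel-wall and endothelial collagen, at 0.281, 0.153 and 0.365 CPM in pluripotent wells and 3.09, 2.93 and 2.83 CPM at day 0 (log2 change 3.47, adjusted p 0.00043). It rose from day 5 to day 9 by 2.99 (SE 0.39, adjusted p 2.6e-07). Both COL8A1 and COL8A2 were called higher at day 90 than at day 30, by 1.76 and 2.29, and both calls were lost without Day 90 well 2 or Day 30 well 1. Among multiplexins, COL15A1, found beside muscle and vessel basement membranes, rose from day 5 to day 9 (log2 change 3.17, adjusted p 0.00019) and from day 9 to day 90 (3.66, adjusted p 4.0e-06) with Day 90 well 4 at 5.08 CPM and the other two at 78.8 and 42.4 CPM. COL18A1 had day 5 wells at 1500, 1480, 1624, 1105 and 1920 CPM against 845, 776 and 671 at day 3 and was not called. COL26A1 fell from 44.8 ± 5.91 CPM at day 9 (SD, n = 5) to 7.75 ± 4.06 at day 30 (SD, n = 3, log2 change -2.51, adjusted p 4.0e-07).

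The remaining members had few calls. COL7A1, the anchoring fibril under skin and other epithelia, was 69.5, 23.8 and 204 CPM at day 30 and 13.9, 118 and 16.6 CPM at day 90, and was not called in any of the 8 comparisons. COL27A1, a fibril chain of cartilage, held 13.8, 13.2 and 12.2 CPM in pluripotent wells and 34.3, 30.1 and 29.5 CPM at day 0 (log2 change 1.26, adjusted p 0.0059). It fell from day 9 to day 30 (log2 change -1.32, adjusted p 0.00014). COL5A3, the third type V chain, was 2.54, 2.61 and 2.08 CPM at day 3 and at most 0.818 CPM in a day 5 well (log2 change -3.03, adjusted p 0.0040). Its rise from day 9 to day 30 (3.46) and that of COL20A1 (4.12) rested on Day 30 well 3, at 4.77 and 7.64 CPM, and without it the log2 changes were 1.51 and 1.83 and not called. COL24A1 and COL28A1 did not exceed 58 and 42 counts in any library.

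Cell-type markers moved with these steps. From day 3 to day 5, where COL1A1, COL3A1 and COL6A3 rose, 3 of 8 fibroblast and epicardium markers rose (WT1, TBX18, LUM) and 5 of 7 cardiomyocyte markers. In the same step 3 of 5 endothelium markers rose (CDH5, TEK, ERG), and of 6 endoderm and liver markers TTR and APOA1 rose and SOX17 fell. The fibroblast and epicardium sum was 541 to 784 CPM at day 3 and 1022 to 1486 at day 5, most of it PDGFRA, with DCN at 1.08 and POSTN at 4.06 CPM on average at day 5. The endothelium sum was 283 to 397 CPM at day 3 and 355 to 769 at day 5, and the endoderm and liver sum 108 to 134 and 232 to 777. Day 5 well 3, the highest for COL3A1 and COL6A3, had the highest endothelium and endoderm sums and the lowest fibroblast and epicardium sum of its day. Without it the log2 changes of COL3A1 and COL6A3 were 5.33 and 3.55, both still called. The cardiomyocyte sum was 47.5 to 51.2 CPM at day 3, 284 to 635 at day 5 and 15212 to 50923 at day 90. From day 9 to day 90, 4 of 8 fibroblast and epicardium markers rose and 1 fell, 5 of 6 endoderm and liver markers fell, and all 5 endothelium markers fell. The fibroblast and epicardium sum was 302 to 837 CPM at day 9 and 280.5 to 1466 CPM at day 90. The endoderm and liver sum went from 473 to 6110 CPM at day 9 to 8.79 to 134 CPM at day 90, with ALB at a mean of 2.07 CPM there. Their part in the collagen results was not tested.

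Wells of one day also differed from each other, and members differed in step. The level of each gene, as log2(CPM + 1), was taken as its deviation from the mean of its group, and 48 relations were computed over the 44 wells, 8 between members and 40 between 5 members and 8 marker sums, with p from 100000 permutations of wells within groups. COL4A1 and COL4A2 varied together (Pearson's r 0.961, Spearman's rho 0.950). Without the 2 wells farthest from the median, r was 0.944, and within single lanes it ranged from 0.904 to 0.995. COL6A1 and COL6A2 had r 0.908 (rho 0.906, r 0.876 without 2 wells), and COL3A1 and COL6A3 had r 0.900 (rho 0.896, r 0.882 without 2 wells). For these 3 relations both p were 1e-05, the smallest these permutations can give, and the adjusted p were 6.86e-05 and 9.6e-05. COL5A1 and COL5A2, partners in type V fibrils, had r 0.361 (rho 0.328), with permutation p 0.055 and 0.083 (adjusted p 0.101 and 0.148). COL4A1 had r 0.898 with COL18A1, which is not its chain partner (rho 0.853, adjusted permutation p 6.86e-05 and 9.6e-05). COL1A1 and COL1A2 had r 0.792 (rho 0.706, adjusted permutation p 0.00012 and 0.00027), from 0.069 to 0.908 within single lanes. COL1A2 and COL3A1 had r 0.872 (rho 0.900), and COL4A5 and COL4A6 had r 0.763 (rho 0.679). Over all 630 pairs of 36 members the median r was 0.199. The points share libraries and the early groups hardly vary, so these values describe mainly day 5 and later wells.

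COL3A1 and COL4A1 took opposite sides of 2 marker sums. COL3A1 had r 0.752 with the fibroblast and epicardium sum (rho 0.644, permutation p 0.00024 and 0.00078) and -0.614 with the cardiomyocyte sum (rho -0.588, permutation p 9e-05 and 0.00042). COL4A1 had r -0.532 with the former (rho -0.481, permutation p 0.0057 and 0.0099) and 0.563 with the latter (rho 0.584, permutation p 0.0041 and 0.0018). Without the 2 farthest wells these were 0.674, -0.529, -0.410 and 0.445. The adjusted p of these 4 were at most 0.0153 for r and 0.0245 for rho. Within single lanes the 2 relations of COL4A1 ranged from -0.806 to 0.0876 and from 0.0353 to 0.800, so they did not hold in every lane. The fibril chain COL2A1 lay on the side of COL4A1, with r 0.631 against the cardiomyocyte sum (rho 0.651, permutation p 8e-05 and 9e-05, adjusted p 0.000427 and 0.000432) and -0.443 against the fibroblast and epicardium sum (rho -0.420, permutation p 0.0099 and 0.0207, adjusted p 0.0216 and 0.0414). COL3A1 also varied with the endothelium sum (r 0.637, rho 0.637, permutation p 0.00048 and 0.00015, adjusted p 0.0019 and 0.00065) and against the pluripotent sum (r -0.567, rho -0.474, permutation p 0.0096 and 0.0132, adjusted p 0.0216 and 0.0288). COL1A1 had r 0.751 with the endothelium sum and 0.734 with the fibroblast and epicardium sum (rho 0.769 and 0.689, adjusted p of r 0.0022 and 6.86e-05, of rho 0.00016 and 0.0003). Without the 2 farthest wells the r of COL2A1 were 0.574 and -0.472, those of COL3A1 0.595 and -0.461, and those of COL1A1 0.681 and 0.630. Within single lanes COL3A1 against the pluripotent sum ranged from -0.80 to 0.62, so its sign changed. COL3A1 against the endothelium sum ranged from 0.158 to 0.918, and COL2A1 against the fibroblast and epicardium sum from -0.791 to -0.0527. The other relations of COL1A1, COL2A1 and COL3A1 named above kept their sign in every lane. COL1A1 also varied against the pluripotent sum (r -0.762, rho -0.560, adjusted permutation p 0.0040 and 0.0119). Within single lanes that r ranged from -0.879 to 0.158, so its sign changed. Against the cardiomyocyte sum COL1A1 had r -0.456 (rho -0.450, adjusted permutation p 0.0094 and 0.0131), from -0.797 to -0.037 within lanes. Without the 2 farthest wells these r were -0.65 and -0.356.

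**Figure D5:**
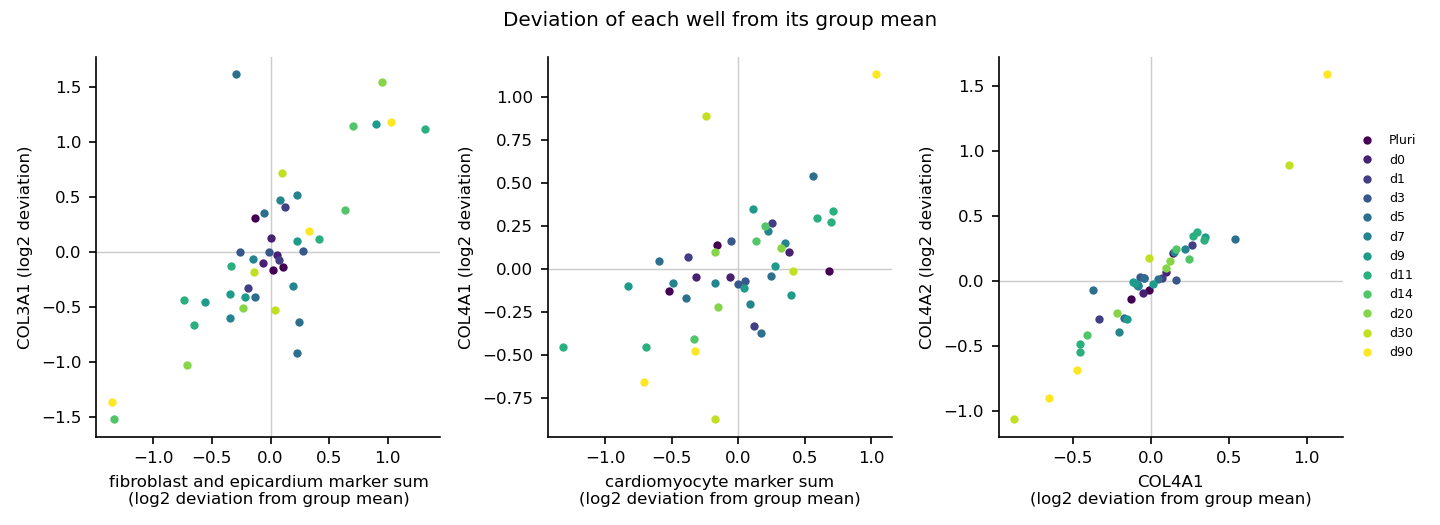
Deviation of each well from its group mean, in log2(CPM + 1), with 1 point per well for 44 wells, coloured by group. COL3A1 is plotted against the fibroblast and epicardium marker sum (r 0.752), COL4A1 against the cardiomyocyte marker sum (r 0.563) and COL4A2 against COL4A1, which lie along a line (r 0.961).

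Genes that build, cut and bind collagen were taken from lists of the wider pathway. Of 17 genes for folding and modification, 3 fell and 1 rose from day 0 to day 1, and 5 rose and 1 fell from day 1 to day 3. Of all genes 9.66% were called lower and 3.86% higher in the first step, and 11% higher and 6.8% lower in the second. The counts of these lists and of the marker lists were not tested against such shares, which are given above for each step. P4HA1, P4HA2 and PLOD2, hydroxylases that stabilise and cross-link the helix, were in both sets. P4HA2 was 36.9, 5.52 and 51.4 CPM in the means of days 0, 1 and 3, with log2 changes of -2.74 (SE 0.23, adjusted p 3.1e-11) and 3.22 (SE 0.24, adjusted p 3.4e-13). P4HA3 rose from day 9 to day 90 (log2 change 5.19, adjusted p 1.2e-05).

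Of 11 secretion and propeptide-removal genes, 4 rose and 1 fell from day 1 to day 3, led by ADAMTS3 (2.28) and ADAMTS2 (1.91), which trim procollagens, while the protease TLL2 fell (-4.01). From day 3 to day 5 PCOLCE, an enhancer of procollagen cleavage, rose by 1.81 (SE 0.34, adjusted p 0.00014), together with ADAMTS2 (1.42). Of 10 receptors, 3 rose in that step, ITGA10, ITGA11 and DDR2, with log2 changes of 2.63, 2.43 and 2.69. Of 7 breakdown genes 5 were tested. From day 30 to day 90 MMP2 (-1.64) and MMP9 fell. MMP9 had at most 1 count in any day 90 well and was at least 59.1-fold lower than at day 30, where Day 30 well 3 held 533 counts.

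Small leucine-rich proteoglycans, which bind fibrils and set their spacing, had the largest late changes of these lists. Of 7, 3 rose from day 9 to day 90. OGN rose by 9.18 (SE 0.82, adjusted p 1.9e-11) to a mean of 61.6 CPM, ASPN by 8.97 (SE 0.75, adjusted p 8.7e-12) to 50.8 CPM and DCN by 4.54 (SE 0.89, adjusted p 8.2e-05) to 300 CPM. LUM rose earlier, from 1.79 to 102 CPM between day 3 and day 5 (log2 change 5.84, SE 1.06, adjusted p 0.00010). LUM and DCN are also among the fibroblast and epicardium markers above, so those counts are not separate evidence.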

How the data were processed

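The authors deposited estimated counts (expected counts) and TPM per gene for each library, with a table holding the RNA integrity score and lane, per the file headers. Libraries were made from total RNA with a stranded kit and read as 150 bp pairs, per the labels' protocols. The submitters' processing notes name cutadapt, STAR 2.5.2b, RSEM 1.2.31 and build hg38; the annotation is not given in the sources used here. Of 60499 gene identifiers 56769 matched GENCODE 29, and 0 columns were unmatched to a sample.

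Estimated counts, 93.8% of them whole, were rounded and fitted with edgeR 4.0.16 (R 4.3.3; filterByExpr, TMM, 1 mean per group over 44 libraries, quasi-likelihood test, Benjamini-Hochberg over 22955 genes). Alternatives were limma 3.58.1 on log2(TPM + 1) and log2(TPM + 0.1), DESeq2 1.42.0, RLE scaling, other filters, the compared groups alone, a replicate block and leaving out each well. Lane or RNA integrity as a term was added after seeing the data. Where a group lay at or under 3 counts in every library, the fold is a bound against 3 counts per library; bounds and shares cover counting error only. On simulated counts for day 9 against day 5 (22095 genes), 31% of 2-fold and 81% of 4-fold changes were recovered and 6 unchanged genes were called. For day 90 against day 30 (22059 genes) the shares were 24% and 74%. The simulated counts used 1 spread per gene from all 44 libraries. The real day 30 and day 90 wells scattered more than the early wells. The recovery and the number of unchanged genes called may therefore be too favourable for that comparison.

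Same-numbered wells were checked for pairing. Correlations of their deviations ran from -0.176 to 0.161 and no comparison had all of them above 0.1, so wells were not treated as paired. No replicate pair among 64 agreed within sampling noise (lowest chi-square per degree of freedom 5.38). The rule named COL1A1, COL3A1 and COL4A1 everywhere, and per comparison up to 6 called members in each direction with the largest changes and at least 1 TPM, with their chain partners. Outside the family it named up to 3 called genes per list. Other genes, such as COL18A1 and COL7A1, were named after their values were seen. Members, classes and lists were chosen with earlier results of these data known. Sequences are from RefSeq (GRCh38.p14), where 32 of 44 members have a promoter window.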

Additional observations from a re-analysis of the deposited data

Results flagged for a closer look

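Single wells far from the others of their day were looked for in the days with 5 wells, for the members with the leading roles in the text. Dixon's gap exceeded its 95% limit of 0.71 in 5 of 44 checks. The rate of about 1 in 20 by chance holds for normal and independent values. These checks used CPM without a log and share wells, so their number cannot be set against that rate. At day 9, well 2 stood high for COL3A1, at 3858 CPM against 1252 to 1842 in the others, and for COL1A2, at 1393 CPM against 455 to 648. In the same group COL13A1 was 89.9 CPM in well 4 and 48.0 to 58.7 in the others. At day 11 COL1A2 was 1032 CPM in well 2 and 367 to 521 elsewhere. At day 7 COL1A1 was low in well 10, at 285 CPM against 603 to 684.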

How the results depend on the processing

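Of the 115 calls of a member in a comparison, RLE scaling and DESeq2 kept 115, RNA integrity as a term 114, lane as a term 109, and leaving out 1 well kept 777 of 856. Limma, which changes the test, the unit and the filter together, kept 58 of 106 on log2(TPM + 1) and 67 of 106 on log2(TPM + 0.1). TPM shifts the median of the 5055 genes above 10 TPM against CPM by -0.93 at day 90 against day 30, -0.64 at day 90 against day 9 and -0.31 at day 5 against day 3. One call reversed: COL4A2 at day 90 against day 9 ranged from -0.21 (without Day 90 well 4) to 1.39 (without Day 90 well 2).

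With the 2 pseudocounts in that order, limma called 1 and 1 members in place of 6 at day 0, 2 and 3 in place of 13 at day 1, and 6 and 8 in place of 15 at day 5. With a pseudocount of 1 it called 16 in place of 25 at day 30 against day 9. At day 90 against day 30 it called 9 with 0.1, all lower, where counts gave 4 of 5 higher. Day 90 against day 9 gave 7 higher and 10 lower on log2(TPM + 1) against 17 and 8. Fitting only the compared groups called 11 at day 0 and 0 at day 90 against day 30, where 1760 genes had an unadjusted p under 0.05. Leaving out 1 well gave 4 to 5, 9 to 11, 15 to 16, 12 to 15 and 9 to 11 members in the first 5 comparisons, 17 to 27 at day 30 against day 9 (17 without Day 30 well 3), 5 to 12 at day 90 against day 30 (8 without Day 30 well 10, 12 without Day 90 well 4) and 23 to 28 at day 90 against day 9.

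The replicate block called 7, 13, 17, 15 and 12 members in the first 5 comparisons and 26 at both day 30 and day 90 against day 9; day 90 and day 30 share no numbers. It took COL4A2 at day 90 against day 9 to 0.62 (adjusted p 0.14). Of 21 wells with a shared number 8 correlated best with their own number.

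Over all genes, limma on TPM called 49 and 62 in place of 669 at day 0, 982 and 1400 in place of 3102 at day 1, 1750 and 2597 in place of 4093 at day 3, and 1560 and 2884 in place of 4347 at day 30 against day 9. Its lower counts were 1076 in place of 2317 at day 5, 796 in place of 2349 at day 9 and 2819 in place of 5485 at day 90 against day 9, and it called 3617 in place of 1168 at day 90 against day 30. Fitting only the compared groups called 1592 at day 0 and 2 at day 90 against day 30, lane as a term 730 in the latter, and leaving out 1 well 252 to 395 at day 0 and 709 to 1794 at day 90 against day 30. Members at a few CPM are limited by depth, where 3 counts set the floor.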
